A study of Mus musculus with 6 samples.

Results

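The genes described here are 10 genes of the endoplasmic reticulum (ER) that fold secreted proteins or respond when folding falls behind: *Hspa5*, *Hsp90b1*, *Pdia4*, *Calr*, *Dnajb9*, *Xbp1*, *Atf4*, *Ddit3*, *Trib3* and *Creb3l2*. They were chosen by name out of 43472 gene symbols, with earlier results of these data known. All 10 were among the 16152 symbols that passed the filter on low counts. Expression was measured by RNA-seq of poly(A) RNA in whole intervertebral discs (IVDs) of the thoracic and lumbar spine, in mice of strain C57B6/J at postnatal day 20 (P20). The 3 mutant libraries came from Col2Cre;*Adgrg6* f/f mice, in which a Cre recombinase under a *Col2a1* promoter deletes *Adgrg6*, an adhesion G protein-coupled receptor also called *Gpr126*, in the cells of the disc and also in periosteum and trabecular bone. The 3 control libraries came from Cre (-) littermates, which carry the genotype label wild type and the title Col2Cre control. Each library was made from discs of 2 to 3 mice pooled, no sex was given, and the p-values below measure the spread between such pools.

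The ER is where collagens, proteoglycans and other secreted proteins are folded, and disc cells and chondrocytes make these in large amounts. When unfolded proteins build up, the sensors IRE1, PERK and ATF6 start the unfolded protein response, which raises chaperone genes through XBP1 and ATF6, and slows translation while favouring ATF4 through PERK. Prolonged signalling through ATF4 induces CHOP, the product of *Ddit3*, and the pseudokinase *Trib3*. XBP1 is activated by splicing of its mRNA and ATF4 by translation of its mRNA, and counts per gene measure neither step.

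The libraries held 9061491 to 12017008 counts on genes, or 40.4% to 44.2% of their reads. Levels are given in CPM, a gene's count relative to all gene counts of its library, scaled by the TMM factors of edgeR, and differences as the log2 fold change of mutant over control with its standard error (SE). The targeted gene, *Adgrg6* (*Gpr126* in the files), was at 108.6 ± 14.7 CPM in control and 122.4 ± 16.1 CPM in mutant discs (SD, n = 3), a log2 fold change of 0.17 (adjusted p = 0.848 in edgeR), so the total count of this gene does not show the deletion. Markers of cartilage were abundant in every library. Of all tested genes, 4.32% were lower in the mutant and 2.89% higher at an unadjusted p under 0.05 in edgeR. Of 11 chondrocyte markers 3 were lower at that threshold and none higher (median log2 fold change -0.30). Their summed levels overlapped, at 91398 to 152998 CPM in control and 123092 to 154946 CPM in mutant libraries. Of 8 hypertrophic chondrocyte markers 4 were lower and none higher (median -0.68). Their summed levels were 2315 to 3518 CPM in control and 2037 to 2365 CPM in mutant libraries. The part of these cells in the differences below was not tested. Control replicate 1 held 4214 summed CPM of 8 skeletal muscle genes against 70.8 to 163 in the other 5 libraries. Calls that change without it are named below.

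Chaperone genes are known to be induced through the ER stress element, a promoter sequence spelled CCAAT, 9 bases of any kind, then CCACG. Windows of 300 bases around 32851 transcription starts of RefSeq genes on GRCm38.p6 were searched for it on both strands, from 250 bases before to 50 bases after each start. The exact spelling was found in 39 windows, 0.119% of all, and 3 of these belong to the genes described here, *Hspa5*, *Hsp90b1* and *Calr*. The 250 bases before their starts are shown 5′ to 3′ along the gene with the element in capitals. Those of *Trib3* follow, the only 1 of the 10 genes with an unadjusted p under 0.05, whose window holds no such match. The windows are chr2:34771840-34772089 on the plus strand for *Hspa5*, and on the minus strand chr10:86705445-86705694 for *Hsp90b1*, chr8:84846932-84847181 for *Calr* and chr2:152344061-152344310 for *Trib3*.
Hspa5: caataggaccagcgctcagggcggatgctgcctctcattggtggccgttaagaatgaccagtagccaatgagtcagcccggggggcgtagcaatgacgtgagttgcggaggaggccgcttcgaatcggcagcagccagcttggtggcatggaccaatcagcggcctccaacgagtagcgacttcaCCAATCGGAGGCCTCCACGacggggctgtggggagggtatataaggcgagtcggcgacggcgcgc
Hsp90b1: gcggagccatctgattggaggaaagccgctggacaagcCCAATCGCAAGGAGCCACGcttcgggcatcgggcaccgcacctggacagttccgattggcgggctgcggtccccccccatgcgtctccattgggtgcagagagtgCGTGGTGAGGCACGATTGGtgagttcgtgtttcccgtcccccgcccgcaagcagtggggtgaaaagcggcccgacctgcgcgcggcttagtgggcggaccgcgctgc
Calr: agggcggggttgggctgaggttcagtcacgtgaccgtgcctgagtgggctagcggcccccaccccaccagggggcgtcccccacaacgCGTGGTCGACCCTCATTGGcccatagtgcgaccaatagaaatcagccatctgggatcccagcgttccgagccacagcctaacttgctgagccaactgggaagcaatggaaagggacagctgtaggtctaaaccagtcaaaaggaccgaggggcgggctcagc
Trib3: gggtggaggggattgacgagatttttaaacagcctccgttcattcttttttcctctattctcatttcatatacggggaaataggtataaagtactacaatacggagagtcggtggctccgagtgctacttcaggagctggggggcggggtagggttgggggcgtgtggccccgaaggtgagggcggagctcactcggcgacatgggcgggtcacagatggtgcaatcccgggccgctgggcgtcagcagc
In *Hspa5* the element ran from position -65 to -47 relative to the start in the forward direction. *Hsp90b1* held a forward copy from -212 to -194 and a reverse copy, which begins with CGTGG, from -107 to -89. The copy of *Calr* was reverse, from -162 to -144. The 7 other genes held no exact match in these windows, which says nothing of sites with another spelling or elsewhere. The related element ATTGG, 1 base, CCACG was in 12 windows (0.0365%) and the amino acid response motif TTGCATCA, through which ATF4 is known to act, in 294 windows (0.895%), and neither was in a window of the 10 genes.

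Expression of 9 of the 10 genes differed between mutant and control discs by less than 0.5 on the log2 scale, and only *Trib3* passed an unadjusted p under 0.05, in the direction of higher expression in mutant discs. Of all tested genes, 7.21% passed that threshold, 2.89% higher and 4.32% lower in the mutant, so that 1 gene in 10 is near the background. None of the 10 passed an adjusted p under 0.05 with the Benjamini-Hochberg method in edgeR, DESeq2 or limma-voom, a threshold that 1 gene passed in edgeR (0.00619% of those tested). *Trib3* was also the only one whose mutant libraries did not overlap its control libraries, which was so for 11.4% of tested genes. The median log2 fold change of the 10 genes was 0.08, beside -0.01 over all tested genes, whose middle range was -0.26 to 0.20. In bulk discs, fewer cells of a type and less RNA per cell cannot be told apart.

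**Figure D1:**
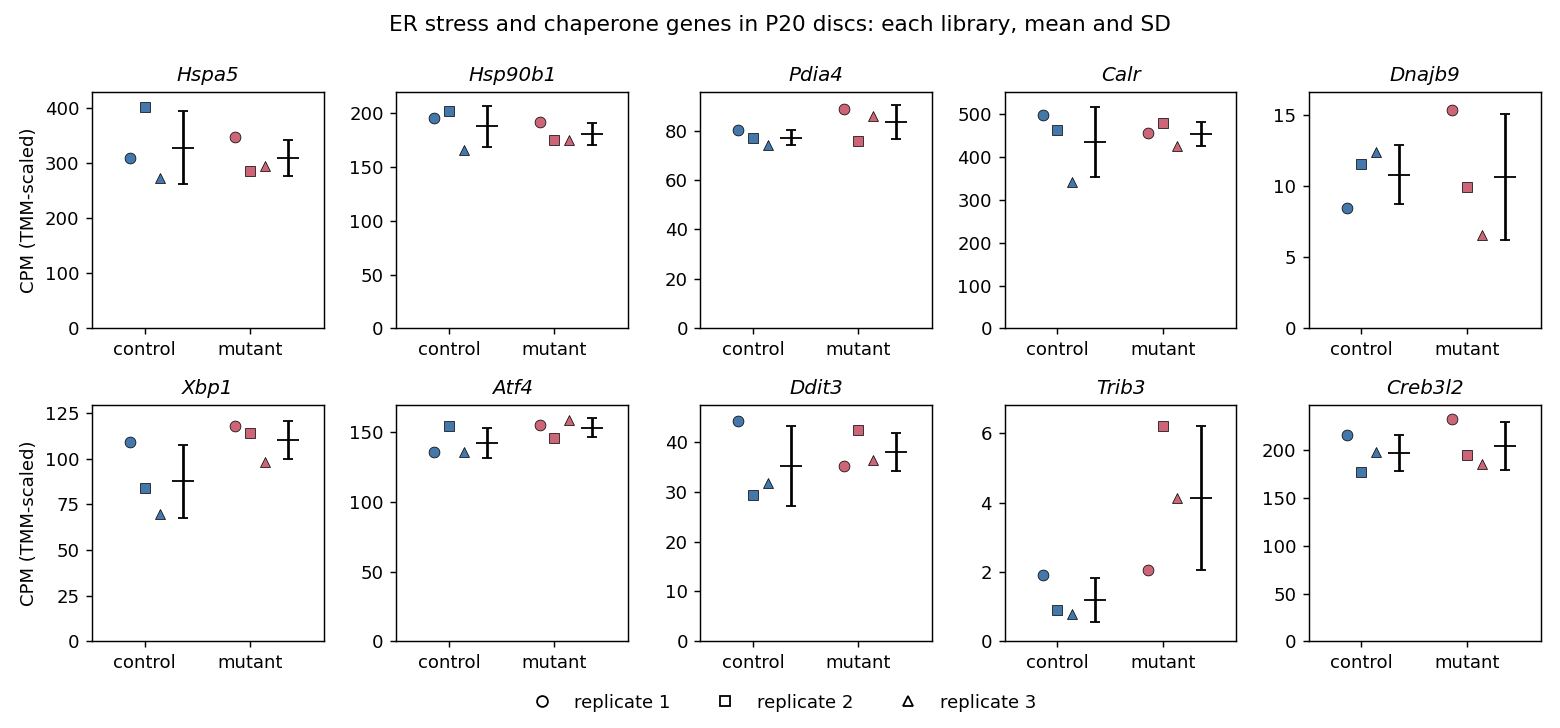
TMM-scaled CPM of the 10 genes in each of the 3 control (blue) and 3 mutant (red) libraries on axes that start at 0, with the marker shape giving the replicate number and the black bars the mean and SD. Control and mutant values overlap in every panel except *Trib3*, where mutant libraries 2 and 3 reached 6.20 and 4.14 CPM and control libraries 0.782 to 1.93 CPM.

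None of the chaperones of the ER lumen passed the test, and mutant and control libraries overlapped for each of them. *Hspa5* encodes BiP, the Hsp70 chaperone that also holds the stress sensors inactive, and it lies at 2:34771970-34777547 (GRCm38, plus strand). Its level was 310, 401.6 and 274 CPM in control libraries 1, 2 and 3 and 347.1, 286.2 and 295.7 CPM in mutant libraries 1, 2 and 3. Control libraries thus gave both the highest and the lowest value, and the mutant values fell between them. The log2 fold change was -0.09 (SE 0.21, adjusted p = 0.943), and its 95% confidence interval, 0.687-fold to 1.29-fold, leaves room for a rise or fall of that size.

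*Hsp90b1* (10:86690209-86705509, minus strand) encodes GRP94, the Hsp90 chaperone of the ER. It measured 195.7, 202.1 and 165.9 CPM in control and 192.4, 175.2 and 175.3 CPM in mutant libraries, with the mutant values inside the range of the controls and a log2 fold change of -0.05 (SE 0.17). Its gene shares 415 exonic bases with *1810014B01Rik* on the opposite strand, a gene with 15066 counts over the 6 libraries against 11259 for *Hsp90b1*, so its counts are uncertain as far as the strand setting is not given in the sources used here. *1810014B01Rik* was named after its values were seen and had a log2 fold change of -0.18 (SE 0.17).

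*Calr* (8:84841850-84846934, minus strand) encodes calreticulin, which binds calcium and folds glycoproteins. Control libraries gave 498.7, 463.9 and 342.7 CPM and mutant libraries 456.2, 480.1 and 425.2 CPM. Control library 3 was the lowest and control library 1 the highest of all 6, so the groups overlapped, and the log2 fold change was 0.06 (SE 0.21, adjusted p = 0.961). *Pdia4* (6:47796141-47813430, minus strand), a disulfide isomerase, varied least of the chaperones, with 80.3, 76.9 and 74.1 CPM in control and 88.7, 75.7 and 85.7 CPM in mutant libraries. Mutant library 2 lay below control libraries 1 and 2, and the log2 fold change was 0.11 (SE 0.16, adjusted p = 0.891).

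*Dnajb9* (12:44205559-44210326, minus strand) encodes ERdj4, a co-chaperone of BiP, and is a known target of spliced XBP1. It was much less abundant, at 8.46, 11.6 and 12.4 CPM in control and 15.4, 9.96 and 6.59 CPM in mutant libraries. Mutant libraries 1 and 3 were the highest and the lowest of the 6. The log2 fold change was -0.03, and its 95% confidence interval from -0.76 to 0.70 was wider than those of the other chaperones.

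Of the transcription factors, *Xbp1* (11:5520659-5525893, plus strand) showed the largest difference, though it did not pass the test. Control libraries gave 109.2, 84.3 and 69.8 CPM and mutant libraries 118, 114.4 and 98.5 CPM. Control library 1, the library with muscle RNA, lay among the mutant values and the other 2 controls below all of them. The log2 fold change was 0.33 (SE 0.20, adjusted p = 0.753). Without control replicate 1 it was 0.54 with an adjusted p of 0.241, the only setting of 12 in which *Xbp1* passed the unadjusted threshold, and without control replicate 3 it was 0.20. The part of muscle RNA in this value was not tested.

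*Atf4* (15:80255184-80257541, plus strand), the effector of PERK and of amino acid shortage, was steady at 136, 154.7 and 135.8 CPM in control and 155.1, 145.7 and 158.7 CPM in mutant libraries. The groups overlapped through control library 2, and the log2 fold change was 0.11 (SE 0.16, adjusted p = 0.906). *Ddit3* (10:127290774-127296288, plus strand), which encodes CHOP, measured 44.3, 29.4 and 31.8 CPM in control and 35.3, 42.4 and 36.4 CPM in mutant libraries. Control library 1 was the highest and the other 2 controls the lowest, with a log2 fold change of 0.11 (SE 0.19, adjusted p = 0.915), or 0.33 without control replicate 1 and still not called. *Ddit3* shares 68 exonic bases with *Mars* on the opposite strand, named here after its values were seen, which had a log2 fold change of -0.08.

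*Creb3l2* (6:37327255-37442146, minus strand) encodes BBF2H7, a membrane-bound factor of the OASIS family known for its role in secretion of cartilage matrix. Its level was 216, 177.7 and 198 CPM in control and 232.8, 195.5 and 185.4 CPM in mutant libraries, ranges that overlapped, and the log2 fold change was 0.05 (SE 0.18, adjusted p = 0.963). Where the scaling used library size alone, without TMM factors, *Pdia4*, *Calr*, *Atf4* and *Creb3l2* passed from above to below 0, so that 3 in place of 7 of the 10 genes lay above 0. The median of all tested genes moved from -0.01 to -0.13 under the same scaling. No direction is given for the genes that changed sign.

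*Trib3* (2:152337422-152344032, minus strand) encodes a pseudokinase that ATF4 and CHOP induce and that restrains AKT. Counts were 18, 8 and 10 in control and 18, 76 and 39 in mutant libraries 1, 2 and 3, equal to 1.93, 0.888 and 0.782 CPM and to 2.05, 6.20 and 4.14 CPM. Mutant libraries 2 and 3 stood well above the rest, while mutant library 1 and control library 1 had the same count. Their order rests on the TMM factors, since without these factors control library 1 was at 1.89 CPM and mutant library 1 at 1.82 CPM. The mean was 1.20 ± 0.632 CPM in control and 4.13 ± 2.08 CPM in mutant discs (SD, n = 3). The log2 fold change was 1.79 (SE 0.61), a 3.47-fold higher level with a 95% confidence interval of 1.36-fold to 8.84-fold, with an unadjusted p under 0.05 and an adjusted p of 0.676 in edgeR.

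The call of *Trib3* held in all alternatives except the one without mutant replicate 2, where the log2 fold change was 1.38. Its adjusted p ranged from 0.141 to 0.999 over the alternatives. Mutant library 2 also had the highest summed level of 8 outer annulus and tendon markers, 41089 CPM, and of 9 red blood cell markers, 458 CPM. Whether either bears on *Trib3* was not tested.

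**Figure D2:**
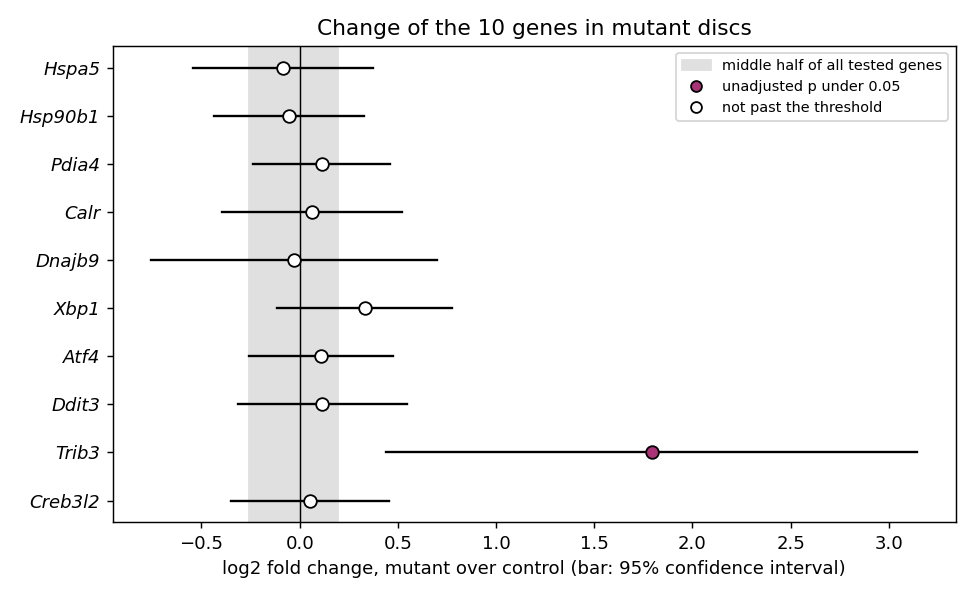
Log2 fold change of mutant over control for each of the 10 genes (points) with its 95% confidence interval (bars) from the edgeR fit, filled where the unadjusted p was under 0.05, over a grey band that holds the middle of all tested genes from -0.26 to 0.20. Every interval except that of *Trib3* (0.44 to 3.14) includes 0.

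The 6 pathway lists differ in size, and differences between them were not tested. The list with the most calls in the edgeR fit was that of the targets of ATF4 and CHOP. Of 31 tested genes on this list, 7 were higher and 1 was lower at an unadjusted p under 0.05, beside 2.89% and 4.32% of all tested genes, and none passed an adjusted p under 0.05 in edgeR or limma-voom and 1, *Ddit4*, in DESeq2. Without a filter on low counts, *Ddit4* and *Slc7a11* passed it in edgeR. The median log2 fold change was 0.25 and 25 genes lay above 0, against 0.12 and 21 genes with library size alone as the scaling. The median of all tested genes moved as well, from -0.01 to -0.13 with library size alone. *Trib3* itself was counted apart from the list. The list was fixed with earlier results of these data known, and what moves its genes was not tested.

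*Ddit4*, which encodes REDD1, an inhibitor of mTORC1, had the smallest p of the list. It measured 160, 112 and 115 CPM in control and 285.5, 181.4 and 259.1 CPM in mutant libraries. Every mutant library lay above every control, and the log2 fold change was 0.91 (SE 0.23, adjusted p = 0.625). *Atf3*, a stress-induced transcription factor, was at 13.9, 12.3 and 12.3 CPM in control and 21.1, 27.2 and 17.0 CPM in mutant libraries. Here too the groups did not overlap, and the log2 fold change was 0.76 (SE 0.22, adjusted p = 0.676). These 2 genes passed the unadjusted threshold in all 12 alternatives, including each in which 1 library was left out.

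The other calls were less firm. *Atf5*, a relative of *Atf4*, went from 107 ± 12.7 to 148 ± 13.1 CPM (SD, n = 3), a log2 fold change of 0.47 (SE 0.18), with all mutant libraries above all controls, and lost its call without control replicate 3 or mutant replicate 3, and with library size alone (0.36). *Chac1*, which degrades glutathione and is induced through ATF4, gave 3.10, 4.55 and 1.95 CPM in control and 7.51, 3.43 and 12.2 CPM in mutant libraries. Mutant library 2, the library highest in *Trib3*, overlapped the controls for *Chac1*, whose log2 fold change was 1.27 (SE 0.51). *Chac1* lost its call when control library 3 (1.01), mutant library 1 (1.32) or mutant library 3 (0.77) was left out. *Sesn2*, a sestrin that restrains mTORC1 (0.59, SE 0.24), *Vldlr*, a lipoprotein receptor (0.68, SE 0.27), and *Slc7a5*, a subunit of the large neutral amino acid transporter (0.49, SE 0.22), lost their calls in 5, 4 and 4 of the 6 settings that left out 1 library. *Vldlr* also lost it in limma-voom (0.48), *Slc7a5* in DESeq2 (0.50), and all 3 with library size alone. With the replicate block *Atf5*, *Chac1* and *Sesn2* were no longer called.

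*Slc7a11*, the cystine and glutamate exchanger, was the gene of this list that was lower. It measured 2.35, 7.66 and 17.7 CPM in control and 1.94, 3.75 and 2.34 CPM in mutant libraries, so that control library 3 carried much of the difference and control library 1 was no higher than mutant library 2. The log2 fold change was -1.78 (SE 0.63), and -0.88 and no longer past the threshold without control replicate 3. It also lost its call without mutant replicate 1 or 3. *Asns*, asparagine synthetase and a classical ATF4 target, was at 19.9 ± 3.65 CPM in control and 19.9 ± 0.905 CPM in mutant discs, a log2 fold change of 0.00 (SE 0.20). *Ppp1r15a*, which encodes GADD34, a phosphatase subunit that ends the PERK signal, had a log2 fold change of 0.40 (SE 0.20) and was called only without mutant replicate 2 (0.59).

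The number of ATF4 and CHOP targets called higher was 2, *Atf3* and *Ddit4*, without control replicate 3, 3 without mutant replicate 3, 4 without mutant replicate 1, and 3 with library size alone as the scaling. Without control replicate 1 it was 7, with *Mthfd2* and *Nars* gained and *Sesn2* and *Vldlr* no longer called. Control library 3 also had the lowest summed levels of cartilage markers, 91398 CPM against 123092 to 154946 CPM in the other libraries, and of outer annulus markers, 10656 CPM against 18556 to 41089 CPM.

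**Figure D3:**
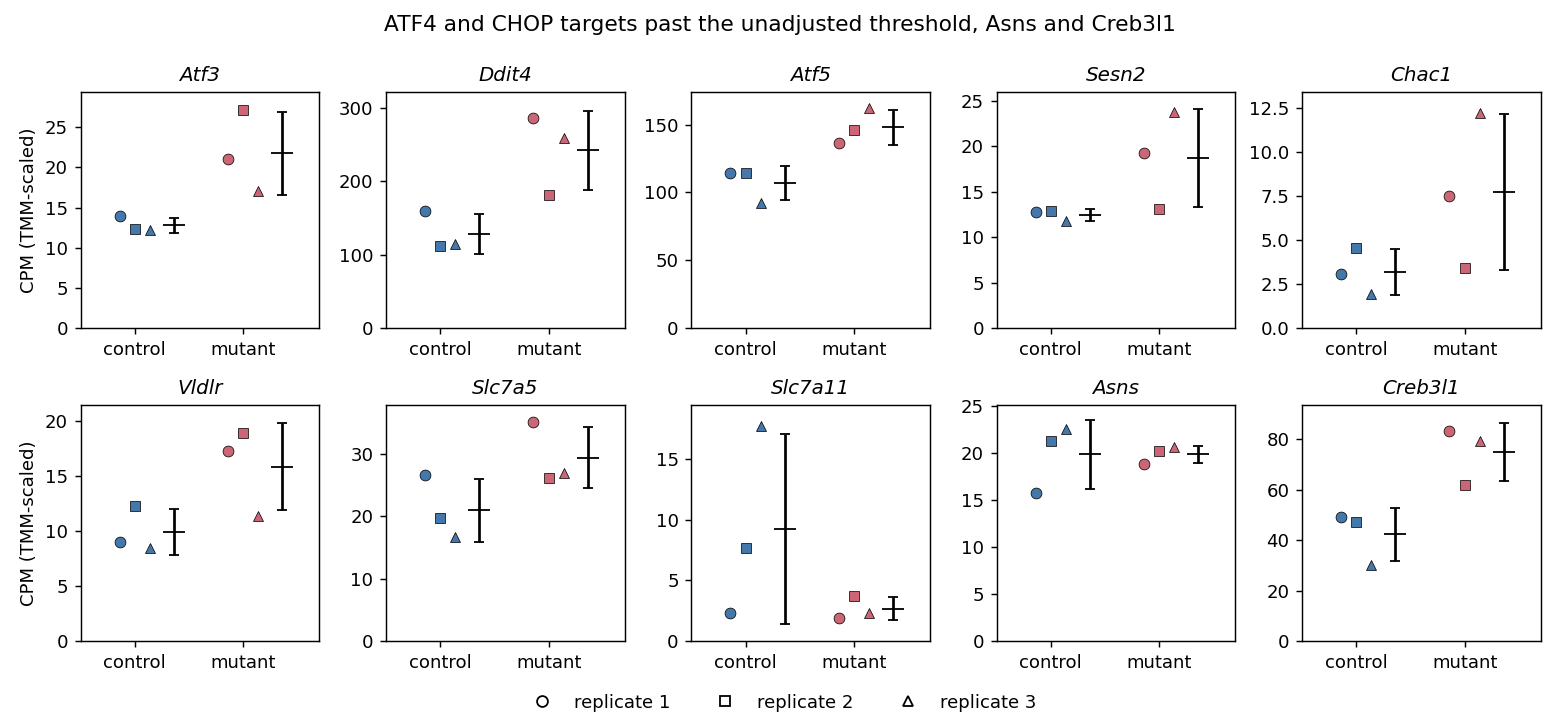
TMM-scaled CPM in each control (blue) and mutant (red) library for the 8 ATF4 and CHOP targets with an unadjusted p under 0.05, for *Asns* and for *Creb3l1*, with marker shape for the replicate number, bars for mean and SD, and axes from 0. Mutant libraries lie above all controls for *Atf3*, *Ddit4*, *Atf5*, *Sesn2* and *Creb3l1* and overlap them in the other panels.

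Among the sensors and the folding machinery around the 10 genes the edgeR fit called none, beside 7.21% of all tested genes. These lists are short, and a difference from that share was not tested. *Ern1*, which encodes IRE1, had a log2 fold change of -0.06 (18.2 against 17.5 CPM), *Eif2ak3*, which encodes PERK, of -0.02 (36.9 against 36.4 CPM) and *Atf6* of 0.05 (21.8 against 22.6 CPM). None of the 4 tested sensor genes passed an unadjusted p under 0.05 in edgeR, and DESeq2 called 1, *Ern2*, which the filter on low counts had removed. Of 27 other genes of ER folding, edgeR and DESeq2 called none and limma-voom 1, *Ppib*. All mutant libraries lay below all controls for 4 of the 27 and above them for 1. Libraries of the groups did not overlap, in either direction, for 11.4% of all tested genes. The log2 fold changes of these 27 ranged from -0.39 to 0.25 around a median of -0.07. *Hyou1*, an Hsp70-like exchange factor of BiP (0.13, SE 0.24), and *Canx*, the membrane-bound partner of calreticulin (-0.01, SE 0.18), were among them. With library size alone, 3 folding genes were lower at the unadjusted threshold, *Sdf2l1*, *Ppib* and *Manf*.

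Of 20 genes of ER-associated degradation, none was called in edgeR, DESeq2 or limma-voom, beside 7.21% of all tested genes in edgeR. The median log2 fold change was 0.07, but it turned to -0.03 with library size alone and to -0.05 without mutant replicate 2, and was 0.01 without control replicate 3 and 0.17 and 0.13 without control or mutant replicate 1. *Erlec1*, a lectin that recognises misfolded glycoproteins, lay just outside the threshold (0.47, SE 0.21) and was called higher with median-of-ratios factors, without a filter, and without mutant replicate 1 or 3. *Herpud1*, which organises the complex that moves misfolded proteins out of the ER, was at 79.4 ± 15.2 CPM in control and 90.9 ± 10.8 CPM in mutant discs (log2 fold change 0.20, adjusted p = 0.837). The 14 genes of translation control around PERK, which include the other kinases of eIF2 alpha (*Eif2ak1*, *Eif2ak2* and *Eif2ak4*), likewise held no call in the 3 tools. Their median was 0.08, and -0.03 in limma-voom and -0.04 with library size alone. Without mutant replicate 2, 1 of the 14, *Eif2s3x*, was called higher.

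*Creb3l1* encodes OASIS, the closest relative of *Creb3l2* on the lists and a factor known for induction of type I collagen in bone. It was the only edgeR call among 22 genes of the OASIS family and of COPII, the coat that carries cargo out of the ER. Of all tested genes 7.21% were called, so that 1 gene in 22 is near the background. *Creb3l1* measured 49.1, 47.3 and 30.3 CPM in control and 83.2, 61.9 and 79.4 CPM in mutant libraries, so every mutant library lay above every control. The log2 fold change was 0.83 (SE 0.22, adjusted p = 0.627), and the unadjusted call held in all 12 alternatives. Its adjusted p ranged from 0.0245 without a filter on low counts to 0.999. Of 8 outer annulus and tendon markers, which include *Col1a1* and *Col1a2*, 4 were higher and none lower at the unadjusted threshold in the same libraries, with summed levels of 10656 to 26065 CPM in control and 23038 to 41089 CPM in mutant libraries. Of 8 osteoblast markers 2 were higher and 2 lower, and the part of either cell type in the value of *Creb3l1* was not tested. DESeq2, limma-voom and the fit without a filter each called 1 more gene, the COPII subunit *Sec24d* (0.48, SE 0.23), and without control replicate 1 the calls were 5, with *Sec16a*, *Sec23b* and *Sec24b* added.

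**Figure D4:**
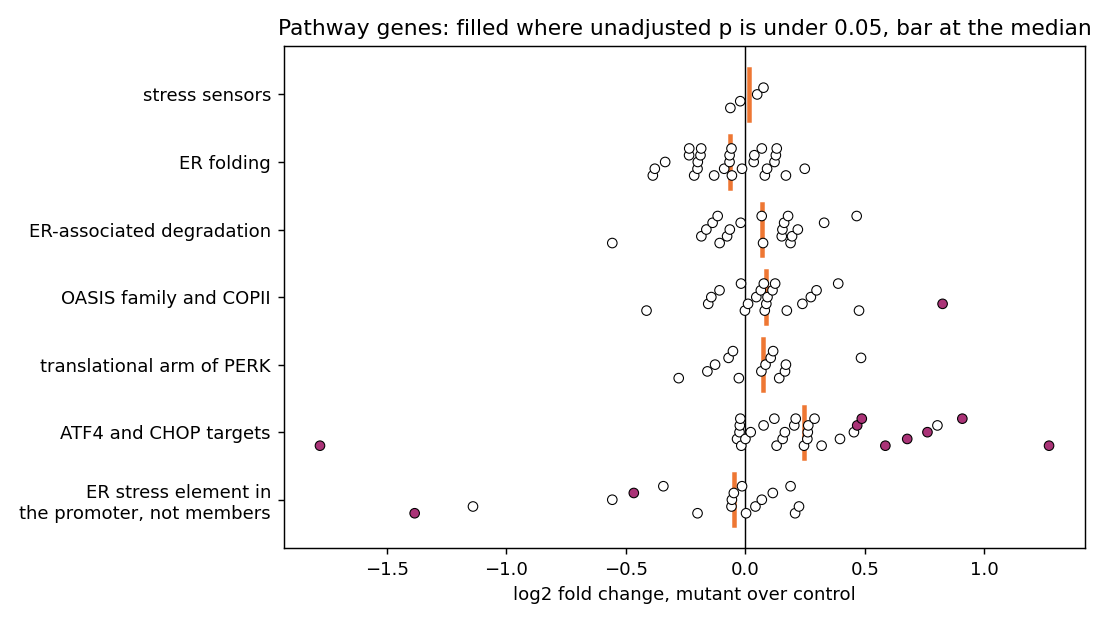
Log2 fold change of mutant over control for every tested gene of 6 pathway lists and of the genes whose RefSeq promoter window holds the ER stress element, without the 10 genes themselves, filled where the unadjusted p was under 0.05 and with an orange bar at the list's median. The list medians lie between -0.07 and 0.09 except that of the ATF4 and CHOP targets at 0.25.

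Genes chosen by DNA sequence alone had a median near that of the folding list and a wider range, from -1.38 to 0.23. Beside *Hspa5*, *Hsp90b1* and *Calr*, 34 genes had the ER stress element in a promoter window, 27 of them were listed in the files and 17 were tested. Their median log2 fold change was -0.05, none was higher and 2 were lower at the unadjusted threshold in edgeR, beside 4.32% of all tested genes that were lower. These were *Xlr3b* (-1.38) and *Acacb* (-0.47), neither of which is known as a chaperone. *Xlr3b* was called in all 12 alternatives, whereas *Acacb* lost its call in DESeq2, in limma-voom, with median-of-ratios factors, without a filter and in 4 of the 6 settings that left out 1 library. The genes shared with the folding list were *Canx* (-0.01), *Pdia6* (-0.20), *Dnajc3* (-0.06), *Creld2* (-0.06) and *Ero1lb* (0.07), and those shared with the degradation list *Syvn1* (0.19) and *Derl3* (-0.56). The median of the set was 0.05 without mutant replicate 3. Of 8 tested genes with the related element, none was called in edgeR, beside 7.21% of all tested genes. Their median was 0.16, with a range over the alternatives of 0.04 (without mutant replicate 2) to 0.26 (without mutant replicate 1).

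Of 84 tested genes with the amino acid response motif, 6 were higher and 9 lower at the unadjusted threshold in edgeR, beside 2.89% and 4.32% of all tested genes. The higher genes *Atf3*, *Chac1* and *Vldlr* and the lower gene *Slc7a11* were also calls of the ATF4 and CHOP list. None of the 84 passed an adjusted p under 0.05 in edgeR. The median of the set was 0.02 but had no stable sign, with a range over the alternatives of -0.09 (library size alone) to 0.07 (without mutant replicate 1). The genes named by the smallest p were *Casz1*, *Capn3*, *Abca13*, *Oprm1*, *Slc7a11*, *Slc1a4*, *Serpinf1* and *Atf3*. Of these 8, *Abca13* passed an adjusted p under 0.05 in DESeq2 and without control replicate 1, and *Abca13*, *Casz1*, *Capn3* and *Slc7a11* did so without a filter. *Atf3*, described above, and *Slc1a4*, a neutral amino acid transporter that went from 34.6 ± 6.05 to 52.1 ± 3.31 CPM (SD, n = 3), were among the higher ones. The zinc finger factor *Casz1* was among the lower ones, from 9.84 ± 1.63 to 3.50 ± 0.385 CPM.

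Levels between the 10 genes were compared as CPM per kilobase of merged exons. In control discs *Calr* was the most abundant at 151 ± 28.4, followed by *Hspa5* at 77.7 ± 15.6, *Atf4* at 60.3 ± 4.59 and *Hsp90b1* at 46.6 ± 4.79 (SD, n = 3). The libraries of *Hspa5* and *Atf4* overlapped. Next by mean were *Pdia4* at 32.1 ± 1.29, *Creb3l2* at 27.1 ± 2.63 and *Xbp1* at 27.0 ± 6.13, and *Xbp1* overlapped *Pdia4*, *Creb3l2* and also *Ddit3* at 20.5 ± 4.67. *Dnajb9* at 4.24 ± 0.819 and *Trib3* at 0.564 ± 0.298 were far below. In mutant discs the order of the means differed in that *Xbp1* at 34.0 stood before *Creb3l2* at 28.1. There *Xbp1* overlapped its neighbours *Pdia4* and *Creb3l2*, *Trib3* at 1.94 overlapped *Dnajb9* at 4.17, and the other neighbours, *Hspa5* and *Atf4* included, lay apart.

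The order of the libraries over the 10 genes depended on the scaling. With TMM factors, which were highest for control library 3 (1.149) and lowest for mutant library 1 (0.8924), control library 3 was the lowest of the 6 for 7 genes and mutant library 1 the highest for 4. With library size alone control library 3 was the lowest for 2 genes, *Calr* and *Xbp1*, and the highest for 4, *Pdia4*, *Dnajb9*, *Atf4* and *Creb3l2*. Summed over the 5 chaperones, levels were 1093, 1156 and 869 CPM in control and 1100, 1027 and 989 CPM in mutant libraries with TMM factors, and 1072, 1149 and 992 CPM and 980, 1047 and 960 CPM without them. The share of gene counts on 30 abundant matrix genes, the secreted cargo of these cells, was 24.1%, 27.0% and 19.2% in control and 22.8%, 25.4% and 26.2% in mutant libraries. Control library 3 had the lowest share of cargo and the most chaperone counts per 1000 cargo counts, 5.16 against 3.66 to 4.44 in the other libraries. The ranges of the groups overlapped on each of these measures.

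Secretory genes are also high in plasma cells. Of 15 plasma and B cell markers in the files 5 were tested and none was called, with levels summed over all 15 of 69.8 to 79.4 CPM in control and 83.3 to 91.2 CPM in mutant libraries, *Igha* listed at 0 counts in every library, and most of the sum on *Sdc1*, which other cells also express. Markers of neutrophil precursors (9 genes, 2 higher) ranged from 16.2 to 60.7 CPM in control and from 34.0 to 157 CPM in mutant libraries. Those of macrophages (9 genes, 1 higher) ranged from 55.3 to 79.4 and from 60.4 to 118 CPM. Mutant library 1 gave the highest value of both sets. Of all tested genes, 2.89% were called higher and 4.32% lower in edgeR. Skeletal muscle markers were lower in the mutant for 8 of 8 genes, through control library 1. The calls of *Trib3*, *Atf3*, *Ddit4* and *Creb3l1* held without that library.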

How the data were processed

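IVDs of 3 mutant and 3 control pools were analysed by RNA-seq. The authors deposited raw counts per gene symbol for each library, not normalized. The submitters' processing notes name STAR 2.5.3a, HTSeq, DESeq2 and the builds mm10 and GRCm38, whereas the methods of the study name Cutadapt, FastQC and HISAT2 with GRCm38.88. The strand setting is not given in the sources used here. Of the reads, 40.4% to 44.2% were counted on genes, 39.4% to 43.3% on no feature, 12.0% to 18.9% were not aligned and 0.8% to 1.0% were ambiguous, and only counts on genes entered library sizes and tests. Reads carry no molecular identifiers, so depth covers counting error only. A deposited table of the authors' own comparison, with fold changes and p-values for selected genes, was not used.

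Counts were normalized by TMM and filtered by filterByExpr at its count minimum of 10 in edgeR 4.0.16 (R 4.3.3), and mutant and control were compared with the quasi-likelihood test over all 16152 genes, with Benjamini-Hochberg adjustment. Dividing the size of a log2 fold change by the root of F gave its SE, and 95% intervals come from the same fit. Calls use an unadjusted p under 0.05. The methods of the study describe another test on values not analysed here. The scripts were tested on simulated data. Alternatives were median-of-ratios size factors, library size alone, no filter, a replicate block, limma-voom with quality weights (limma 3.58.1), DESeq2 1.42.0, and the omission of 1 library at a time.

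The genes and lists were chosen with earlier results of these data known, so counts over a list are descriptions and no set test was run. Named were the 10 genes, *Gpr126*, 11 listed pathway genes, list members with an unadjusted p under 0.05 (at most 12 a list, 8 for promoter sets), and a few chosen after their values were seen: *1810014B01Rik*, *Mars*, some genes called only under an alternative, and known folding genes of the promoter set. Gene positions are from GENCODE M21. Promoter windows are from RefSeq on GRCm38.p6, with symbols matched directly or by a single synonym. A planned set of proteins with an ER retrieval signal was not analysed here.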

Additional observations from a re-analysis of the deposited data

How the results depend on the processing

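Of 120 values of the 10 genes under the 12 alternatives, 105 kept their direction and their side of the unadjusted threshold, 1 lost its call (*Trib3* without mutant replicate 2, 1.38), 1 gained one (*Xbp1* without control replicate 1, 0.54) and 13 changed sign, all of genes with no call. The number of the 10 genes called ranged from 0 without mutant replicate 2 to 2 without control replicate 1. The number of all genes at an unadjusted p under 0.05 was 1164, 2276 without a filter, and 618 (without control replicate 3) to 2427 (without control replicate 1) with 1 library left out. At an adjusted p under 0.05 it was 1, and 52 in DESeq2, 0 in limma-voom, 245 without a filter and 0 to 31 with 1 library left out, the 31 being without control replicate 1. ATF4 and CHOP targets called higher numbered 7, and 3 with library size alone, 4 with the replicate block and 2 (without control replicate 3) to 8 with 1 library left out. Library size alone moved the median of all genes from -0.01 to -0.13 and gave *Pdia4* -0.0058, *Calr* -0.0385, *Atf4* -0.0078, *Creb3l2* -0.0702, *Atf6* -0.0727 and *Asns* -0.12. The medians of the OASIS and COPII list and of the amino acid response motif set, 0.09 and 0.02, were -0.03 and -0.09 there, and that of the ER stress element set went from -0.05 to -0.16. Limma-voom gave *Eif2ak3* 0.0321 and *Asns* -0.0270, and *Canx* was 0.0045 in DESeq2 and 0.0053 without a filter. With 1 library left out, log2 fold changes ranged from -0.19 to 0.0785 for *Hspa5*, -0.0752 to 0.19 for *Calr*, -0.35 to 0.22 for *Dnajb9*, -0.0007 to 0.33 for *Ddit3*, -0.0230 to 0.14 for *Creb3l2*, -0.19 to 0.0576 for *Ern1*, -0.12 to 0.14 for *Eif2ak3*, -0.0487 to 0.17 for *Atf6*, -0.0641 to 0.38 for *Hyou1*, -0.10 to 0.10 for *Canx* and -0.12 to 0.11 for *Asns*. The causes were not tested. Deviations from the group mean had correlations of 0.159, -0.132 and 0.101 between same-numbered control and mutant libraries. Between libraries of unlike number they were -0.265 to 0.179. With 3 libraries a group these values cannot decide whether the numbers pair the samples, and the main fit used no pairing. The replicate block gave 1002 unadjusted and 0 adjusted calls, with *Trib3* at 1.76 (adjusted p = 0.739 in edgeR) and still called at the unadjusted threshold. Under the block *Atf5* (0.47), *Chac1* (1.18), *Sesn2* (0.55) and *Acacb* (-0.46) were no longer called and *Sec24d* was. With 3 pools a group, the intervals of the chaperones are wide, and at 8 to 76 counts *Trib3* is the least precise of the 10 genes.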
